A study of Mus musculus with 6 samples.

Results

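The genes described here are 8 mouse 2′-5′ oligoadenylate synthetase genes, Oas1a, Oas1b, Oas1c, Oas1g, Oas2, Oas3, Oasl1 and Oasl2, chosen by symbol as one gene family. All 8 were found among the 26012 genes of the expression table, and all 8 passed the filter for testing, a mean normalized count of at least 1. The RNA came from the ventricles of 6 mice (C57BL/6, male, 8 weeks of age), taken 4 days after myocardial infarction (MI) had been induced by tying off the left anterior descending artery. At surgery, 3 hearts received control mimic and 3 received miR-19a/19b mimics (10 μg per heart, injected into the heart in a lipid carrier), where a mimic is a short double-stranded RNA made to take the place of a mature miRNA. Both groups were infarcted and injected, and no uninjured heart enters the comparison, so the values compare 2 treatments of the infarcted heart. The question was whether the mimics altered expression of these genes early after MI.

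Oas proteins are sensors of double-stranded RNA whose genes are induced by interferon. Bound to RNA, the active enzymes join ATP into 2′-5′ linked oligoadenylates, which serve as signals that lead to the decay of viral and cellular RNA. The Oasl proteins carry ubiquitin-like repeats behind the synthetase fold, and transcription of the family depends on the interferon receptor, the kinases bound to it and a complex that holds Stat2 and Irf9. In the infarcted heart, nucleic acid from dying cells is known to induce interferon-stimulated genes in infiltrating leukocytes.

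The mature sequences of the injected miRNAs are shown first. A direct action of a mimic on a transcript could run through the seed, bases 2 to 8, given in capitals. Pairing outside the seed was not searched. The sequences are those of RefSeq on GRCm38.p6, where both miRNAs lie in one cluster on chromosome 14 and miR-19b has a further copy on chromosome X.
mmu-miR-19a-3p: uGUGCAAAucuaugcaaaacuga
mmu-miR-19b-3p: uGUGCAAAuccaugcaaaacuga
Both share the seed GUGCAAA. The letters that pair with the seed, TTTGCAC, or with bases 2 to 7 before an A, TTGCACA, were searched over whole transcripts of GENCODE M21. Of 33 transcripts of the 8 genes, 1 held such a match, a retained-intron transcript of Oasl2, and no coding transcript did. Counted per gene and over coding transcripts alone, 29.4% of 21901 genes held a match, and no Oas gene did. The shorter TTGCAC was found in transcripts of 2 genes, once in the longest coding transcript of each, and the surrounding bases are printed with the match in capitals. In Oasl1 it lies in exon 6 at chr5:114937100-114937105, and in Oasl2 in exon 5 at chr5:114906765-114906770 (GRCm38, plus strand), in the coding sequence of both.
Oasl1: tcagaagccaTTGCACgctcgcctac
Oasl2: tgcaggtctgTTGCACgactgtaggc

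Since 7 of the 8 genes separated the groups in one direction (values below), the promoters of the family were searched for the letters GAAANNGAAA, the core of the interferon-stimulated response element, on both strands (TTTCNNTTTC), overlapping matches included. RefSeq windows of 300 bases, 250 before and 50 after the start, were at hand for 6 of the 8 genes, with Oas1b and Oas2 not in the table. The letters were found in 4 of the 6 (Oas1a, Oas1g, Oas1c and Oas3) and in 3.44% of all 32851 windows. They were not in the windows of Oasl1 and Oasl2. Stretches of 80 bases around the matches are printed in the direction of transcription (GRCm38.p6, minus strand), with the matched letters in capitals, at chr5:120907498-120907577 for Oas1a, chr5:120887584-120887663 for Oas1g, chr5:120812581-120812660 for Oas1c and chr5:120777690-120777769 for Oas3.
Oas1a: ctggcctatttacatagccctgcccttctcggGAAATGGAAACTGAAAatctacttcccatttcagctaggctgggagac
Oas1g: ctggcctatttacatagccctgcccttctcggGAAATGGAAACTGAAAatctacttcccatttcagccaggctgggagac
Oas1c: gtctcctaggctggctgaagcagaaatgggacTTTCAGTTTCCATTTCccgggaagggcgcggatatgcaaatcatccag
Oas3: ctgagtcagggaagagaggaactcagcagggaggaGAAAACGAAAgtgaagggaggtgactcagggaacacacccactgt
The stretches of Oas1a and Oas1g were the same at 79 of 80 bases and hold the same pair of overlapping matches. Oas1b had no window of its own, but the Oas1c stretch spans the start of Oas1b (chr5:120812635, plus strand). Both matches of that stretch lie before the start of Oas1b. Read on the plus strand, their letters are those matched in Oas1a and Oas1g. A match describes the letters only, and binding of a factor was not measured.

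The hearts had 19398196 to 23645308 reads assigned to genes, and the 8 Oas genes took between 0.0163% and 0.042%. Hearts of the mimic group were not alike in their makeup. In miR-19a/19b mimic replicate 1, 6 markers of skeletal muscle summed to 2282 normalized counts, against between 28.3 and 69.2 in the other 5 hearts. In miR-19a/19b mimic replicate 3, 8 cardiomyocyte markers (all 8 detected, among them Myh6 and Tnnt2) summed to 303975, below the 499753 to 637903 of the control hearts, while the other two mimic hearts lay above them at 877591 and 775833. The fold changes of the Oas genes are therefore also given with single hearts left out.

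Every Oas gene had a lower mean in the miR-19a/19b mimic hearts, from 46.0% of the control mean for Oas1g to 75.4% for Oas1c. Summed over the 8 genes, the normalized counts were 7122, 8683 and 8039 in control hearts 1, 2 and 3, and 3748, 5525 and 5358 in mimic hearts 1, 2 and 3. All 3 mimic hearts thus lay below all 3 control hearts, with the lowest sum in mimic heart 1. For 7 of the 8 genes the groups did not overlap in this way, where 5.3% of the 21126 genes tested had every mimic heart below every control heart. The same 7 genes had an unadjusted p-value under 0.05 in limma, where 2.63% of all genes were lower at that level. The median log2 fold change was -0.67 over the 8 genes and 0.00 over all genes tested. At an adjusted p-value under 0.05, limma called 0 of the 8 genes and 0% of all genes. With the Wald test of DESeq2, run on reads, Oas1g and Oas3 passed that threshold. They were among 28 genes called lower, 0.198% of the 14154 genes that DESeq2 gave an adjusted p-value. With edgeR's exact test the same pair passed, among 28 genes called lower, 0.133% of 21126. Bulk RNA cannot tell fewer cells of a type from less RNA per cell, and this holds for all values here.

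**Figure D1:**
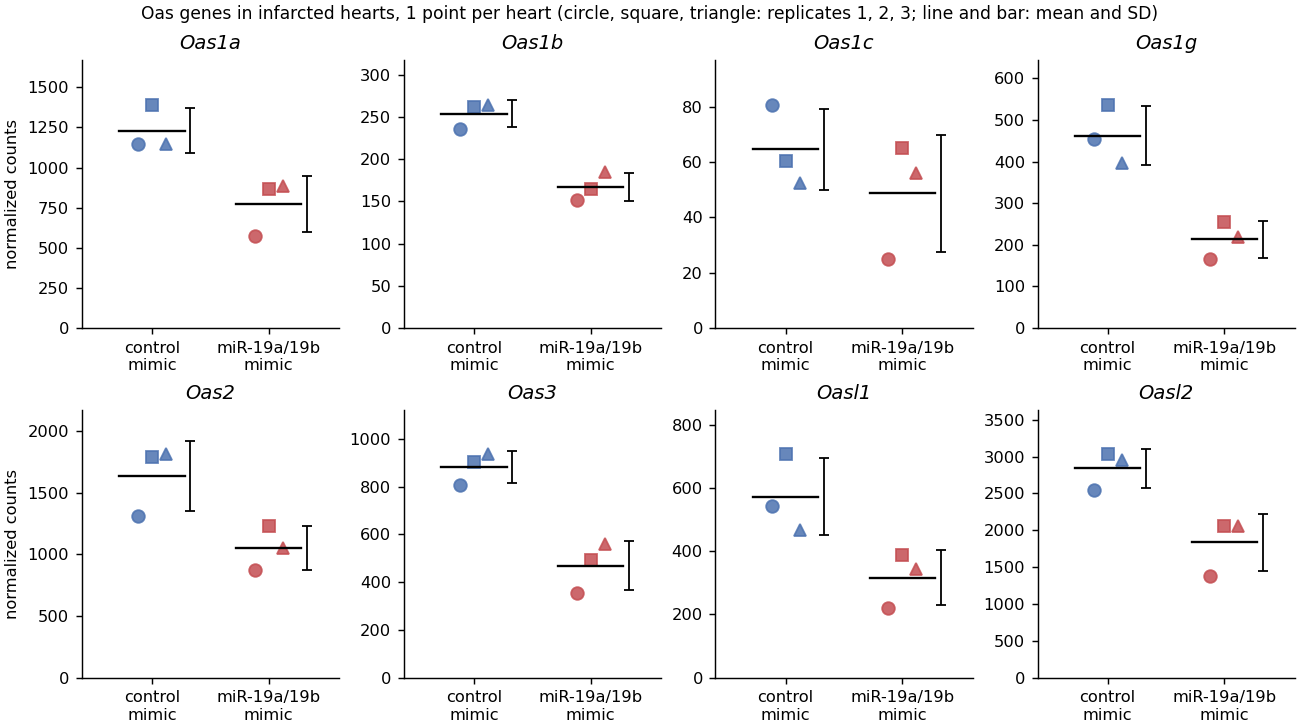
Normalized counts (y axes, from 0) of the 8 Oas genes in 3 control mimic hearts (blue) and 3 miR-19a/19b mimic hearts (red), 1 point per heart, with the mean as a line and the SD as a bar. The groups separate in every panel but that of Oas1c, and mimic heart 1 (circle) is the lowest heart in all 8.

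The Oas1 genes encode the short synthetases with a single catalytic unit. Oas1a (ENSMUSG00000052776, chr5:120896256-120907521, minus strand) encodes an active synthetase. Its normalized counts were 1149, 1392 and 1149 in the control hearts and 573, 864 and 887 in the mimic hearts. The highest mimic heart reached 77.2% of the lowest control heart. The means were 1230.1 ± 139.9 (SD, n = 3) and 775 ± 175, and the log2 fold change was -0.69 (standard error, SE, 0.17, limma adjusted p = 0.877).

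Oas1g (ENSMUSG00000066861, chr5:120876142-120887613, minus strand), the near-identical neighbour of Oas1a, had 455, 537 and 396 normalized counts in the control hearts and 166, 255 and 219 in the mimic hearts. This was the widest separation in the family, with the highest mimic heart at 64.3% of the lowest control heart. The means of 463 ± 70.6 and 213 ± 44.8 gave a log2 fold change of -1.13 (SE 0.18, limma adjusted p = 0.396), and by unadjusted p-value it ranked 6 of the 21126 genes. DESeq2 gave an adjusted p of 0.000273 and edgeR's exact test 0.000164. Counts of this pair are uncertain, because the transcripts of Oas1a and Oas1g align over 1861 bases at 97.6% identity. Of windows of 150 bases, the length of a read, 32.4% in Oas1a and 30.1% in Oas1g occur letter for letter in the other gene, and a read that lies wholly in such a window cannot be assigned by its sequence.

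Oas1b (ENSMUSG00000029605, chr5:120812635-120824163, plus strand) is known for a full-length form that protects mice from flaviviruses, while C57BL/6 and most other laboratory strains carry a truncating allele, and the table lists it as a polymorphic pseudogene. Its transcript was counted all the same, at 235, 262 and 264 normalized counts in the control hearts and 152, 165 and 185 in the mimic hearts. The hearts of each group lay close together, with means of 254 ± 15.97 and 167 ± 16.8. The log2 fold change was -0.60 (SE 0.13, limma adjusted p = 0.791), with the smallest standard error of the 8 genes.

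Oas1c (ENSMUSG00000001166, chr5:120800194-120812514, minus strand) was the exception. It had 80.7, 60.5 and 52.3 normalized counts in the control hearts and 24.7, 65.0 and 56.2 in the mimic hearts, so the groups overlapped and mimic heart 1 alone stood below. The log2 fold change of -0.49 (SE 0.36, limma adjusted p = 0.9996) had a 95% interval from -1.30 to 0.32, which holds both no difference and the values of all 7 other genes. Without mimic heart 1 it was -0.07. Between 23 and 73 reads per heart lie behind these values. An antisense gene, Gm43069, shares 227 exon bases with Oas1c, and whether counting used the strand is not stated in the sources used here. Elsewhere in the Oas1 cluster, Oas1h and Oas1d, which are not among the 8, had at most 12 and 3 reads in a heart.

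Oas2 and Oas3 encode the larger synthetases, built from repeated synthetase units. Oas2 (ENSMUSG00000032690, chr5:120730333-120749853, minus strand) had 1311, 1789 and 1811 normalized counts in the control hearts and 874, 1232 and 1048 in the mimic hearts. Control heart 1 lay well below the other two control hearts here, and the highest mimic heart reached 94.0% of it, the narrowest gap of the 7 separated genes. The log2 fold change was -0.64 (SE 0.17, limma adjusted p = 0.886). For Oas3 (ENSMUSG00000032661, chr5:120753098-120777661, minus strand), the longest of the synthetases, the values were 808, 905 and 936 in the control hearts and 356, 493 and 560.2 in the mimic hearts. The means of 883 ± 66.8 and 469.7 ± 104 gave a log2 fold change of -0.93 (SE 0.16, limma adjusted p = 0.495, 0.0025 from DESeq2 and 0.00168 from edgeR's exact test).

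The Oasl genes lie in a separate cluster of 41.0 kb on the same chromosome. Oasl1 (ENSMUSG00000041827, chr5:114923240-114937915, plus strand) lacks synthetase activity and is known to restrain translation of Irf7, a transcription factor of interferon genes. It had 542, 707 and 468 normalized counts in the control hearts and 219, 387 and 343 in the mimic hearts, a log2 fold change of -0.87 (SE 0.23, limma adjusted p = 0.886). Both groups spread widely, and control heart 2 was the highest of all. Oasl2 (ENSMUSG00000029561, chr5:114896936-114912234, plus strand), which has kept synthetase activity, had 2541, 3032 and 2962 in the control hearts and 1384, 2065 and 2059.9 in the mimic hearts. Its log2 fold change was -0.65 (SE 0.17, limma adjusted p = 0.877). An antisense gene, Gm13822, shares 38 exon bases with Oasl1.

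**Figure D2:**
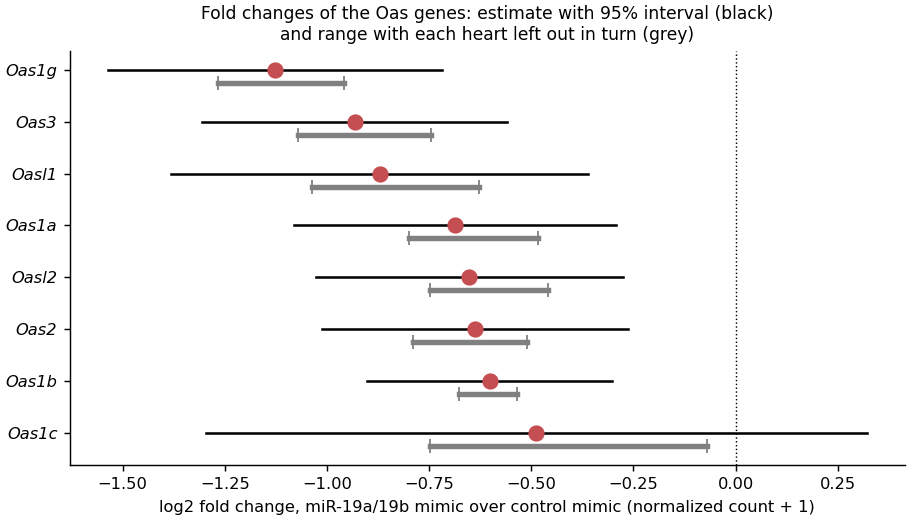
Log2 fold change of each Oas gene, miR-19a/19b mimic over control mimic, on the log2(normalized count + 1) scale (x axis), with the 95% interval of the limma fit in black and the range over 6 fits that each left out 1 heart in grey. Only the interval of Oas1c crosses 0, and none of the grey ranges does.

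Leaving out mimic heart 1, the heart with skeletal muscle markers, gave the smallest differences for all 8 genes, and 7 of the 8 kept an unadjusted p-value under 0.05 without it. The log2 fold changes were then -0.96 for Oas1g, -0.74 for Oas3, -0.63 for Oasl1, -0.48 for Oas1a, -0.46 for Oasl2, -0.51 for Oas2 and -0.53 for Oas1b. Without mimic heart 3, the heart low in cardiomyocyte markers, limma called 6 of the 8 genes at an adjusted p-value under 0.05, the exceptions being Oas1c and Oas2, and it called 154 genes lower and 361 higher in all. The same 7 genes had an unadjusted p-value under 0.05 with any 1 of the 6 hearts left out. Over all 21126 genes, the number lower at that level was 372 to 521 in 5 of these fits and 1293 without mimic heart 3, where 1777 genes were higher.

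The members sit in 2 clusters on chromosome 5. Along the 177 kb that hold Oas2, Oas3, Oas1c, Oas1b, Oas1g and Oas1a, the larger differences of Oas3 and Oas1g were not next to each other. Oas1c and Oas1b, which lie head to head, had log2 fold changes of -0.49 and -0.60.

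**Figure D3:**
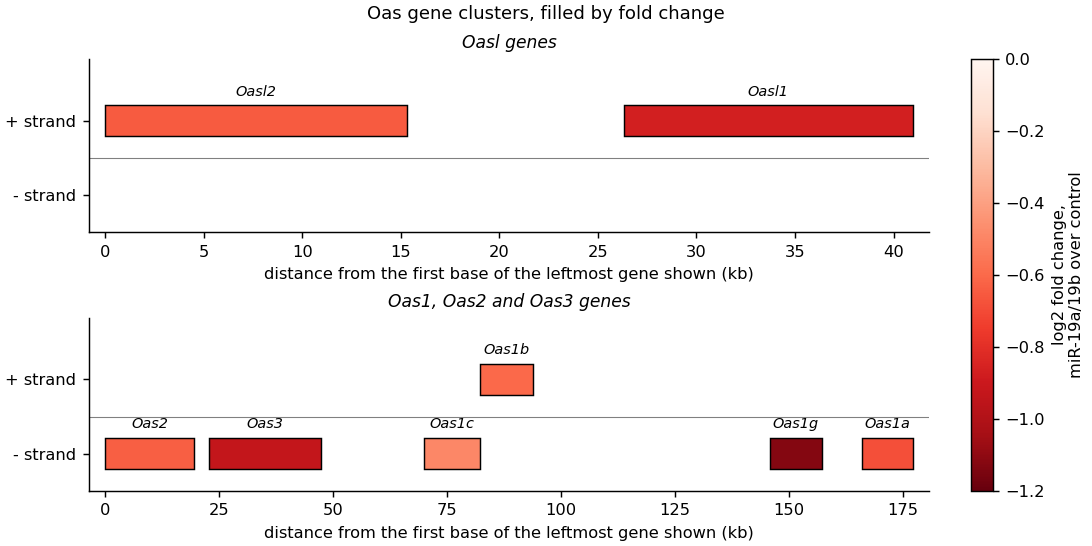
Positions of the 8 Oas genes as distance in kb from the first base of the leftmost gene of each cluster (x axis) and strand (y axis), filled by log2 fold change, miR-19a/19b mimic over control mimic, with darker red for a lower value. The darkest genes, Oas1g (-1.13), Oas3 (-0.93) and Oasl1 (-0.87), are spread over both clusters.

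Levels were compared between genes as normalized counts per kilobase of exon, using the length in the table, which equals the union of annotated exons for all 8. In control hearts, Oas1a was highest at 653 ± 74.2 normalized counts per kilobase (SD, n = 3), followed by Oasl2 at 446 ± 41.7, Oas2 at 368 ± 63.5, Oasl1 at 219 ± 46.8, Oas1g at 198 ± 30.2, Oas1b at 127 ± 8.02, Oas3 at 125 ± 9.45 and Oas1c at 26.8 ± 6.07. Among neighbours in this order, the control hearts overlapped between Oasl2 and Oas2, between Oasl1 and Oas1g and between Oas1b and Oas3, and did not overlap elsewhere. The order at the top depends on the length used. With the longest transcript in place of the exon union, Oasl2 came first at 911 ± 85.04 and Oas1a second at 653 ± 74.2, and Oas3 moved above Oas1b. In the mimic hearts the order by mean level per kilobase of exon was the same, from 411 ± 92.7 for Oas1a to 20.2 ± 8.79 for Oas1c.

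The 8 genes together came to 1971, 2401 and 2117 normalized counts per kilobase of exon in the control hearts and to 1009, 1496 and 1449.6 in the mimic hearts. Within this sum, the share of Oas1g was 9.87%, 9.56% and 8.00% in control hearts 1, 2 and 3 and 7.02%, 7.28% and 6.45% in the mimic hearts. It was the only share of the 8 whose groups did not overlap (p = 0.1 by a two-sided exact permutation test, the lowest value possible with 3 hearts against 3, and 0.6 after Benjamini and Hochberg adjustment over the 8 shares). The share of Oas1a was 30.2% ± 1.19 (SD, n = 3) in control hearts and 31.1% ± 1.22 in mimic hearts, and that of Oasl2 was 20.7% ± 1.13 and 21.8% ± 0.418. The make-up of the other 7 genes within the family overlapped between the groups, in a test that could not have passed 0.05.

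**Figure D4:**
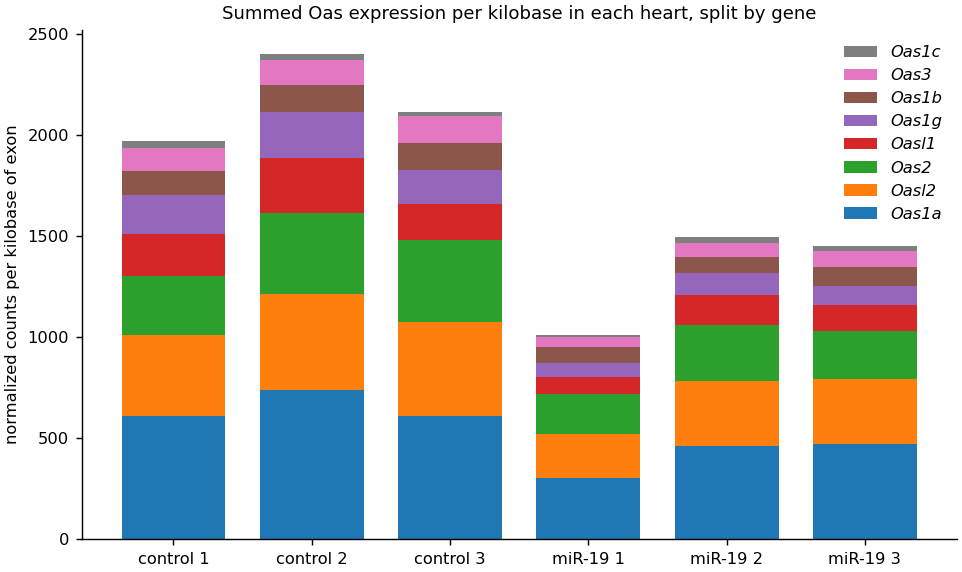
Normalized counts per kilobase of exon, summed over the 8 Oas genes in each heart (y axis, from 0) and split by gene. The 3 mimic bars end between 1009 and 1496, below the control bars at 1971 to 2401, while Oas1a, Oasl2 and Oas2 fill most of every bar.

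The genes also varied together from heart to heart. Relative to the control mean, the mean log2 level of the 8 genes was -0.06, 0.12 and -0.06 in the control hearts and -1.15, -0.52 and -0.58 in the mimic hearts. Over the 6 hearts, Pearson's r between the 21 pairs of genes without Oas1c lay between 0.87 and 0.99 (median 0.94), and between the 7 pairs with Oas1c between 0.54 and 0.78. After the group means were subtracted, the median over all 28 pairs was 0.75, from 0.32 between Oas1c and Oas2 to 0.99. These correlations describe 6 libraries that share their depth and scaling.

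Of 12730 other genes with a mean of at least 50 normalized counts, the 5 whose pattern over the 6 hearts was most like the mean of the Oas genes included Rsad2 (r = 0.997), Stat2 (0.99), Sp110 (0.99) and H2-T23 (0.99). Rsad2 encodes the antiviral enzyme viperin, Sp110 a nuclear body protein and H2-T23 a non-classical MHC class I protein. Rsad2 had 1469, 1668 and 1448 normalized counts in the control hearts and 828, 1142 and 1094 in the mimic hearts, with mimic heart 1 lowest as for every Oas gene. The log2 fold changes of the 5 were between -0.59 and -0.48.

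Upstream of the family, a list held 16 interferon receptors, kinases, transcription factors and feedback inhibitors (Socs1 and Usp18), each of which entered the test. Its median was -0.16 on the log2 scale, against 0.00 over all genes tested. At an unadjusted limma p-value under 0.05, 4 of the 16 were lower (among them Stat2, Irf9 and Usp18), as were 2.63% of all genes. At that level 0 of the 16 were higher, and limma called 0 at the adjusted threshold. Ifnar1, a chain of the type I interferon receptor, had 1767, 2065 and 1695 normalized counts in control hearts and 1676, 1631 and 2164 in mimic hearts, with the groups interleaved. Its partner Ifnar2 overlapped as well, with a log2 fold change of -0.16 (95% interval from -0.44 to 0.11). For Stat2 the values were 1850.2, 2204 and 2028 in control hearts and 1102, 1438 and 1523 in mimic hearts, with a log2 fold change of -0.59 (SE 0.14, limma adjusted p = 0.815). Irf9, its DNA-binding partner, stood at 1449, 1675 and 1578 against 1089, 1342 and 1306, a smaller difference of -0.33 (SE 0.12, limma adjusted p = 0.9996). In both factors no mimic heart reached the lowest control heart. Other factors of the list (Irf1, Irf2, Irf5 and Irf8) overlapped between the groups. In 7 of the 16 genes every mimic heart lay below every control heart, as in 5.3% of all genes tested, and in 0 the reverse held. Among the 7 were the receptor chain Ifngr1 and the kinases Jak1 and Jak2, with log2 fold changes of -0.21, -0.07 and -0.15. Their unadjusted limma p-values were 0.07, 0.475 and 0.118. Receptors and factors were not tested against each other. With single hearts left out, the log2 fold change of Irf9 ranged from -0.39 to -0.24, the latter without mimic heart 1, and its unadjusted limma p-value reached 0.0673.

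Interferons themselves were hardly counted. Of 20 interferon genes listed, 3 were in the table. Ifnb1, the type I interferon made by most cell types, had 5.86 normalized counts in control heart 2 and was at 0 in the other 5 hearts, and Ifng, made by T and NK cells, had at most 2.06 in a heart. At this depth no difference in interferon transcripts was detectable.

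Among 16 genes listed for the oligoadenylate pathway and related RNA and DNA sensing, 6 were lower at an unadjusted p-value under 0.05 (Ifih1, Ddx58, Dhx58, Eif2ak2, Adar and Irf7), 0 were higher and the median was -0.17. Over all genes tested, 2.63% were lower at that level and the median was 0.00. Pde12, which degrades the oligoadenylates, had 361, 374 and 392 normalized counts in control hearts and 367, 378 and 343 in mimic hearts, with a 95% interval of the log2 fold change from -0.29 to 0.19. Abce1, a ribosome recycling factor also linked to this pathway, had 1865, 1921 and 1964 against 1815, 1935 and 1655, with an interval from -0.32 to 0.13. Both genes overlapped between the groups, and their intervals exclude a difference as large as that of Oas1g. Irf7, in contrast, had 4886, 6030.2 and 4175 normalized counts in control hearts and 2764, 3626 and 2674 in mimic hearts, a log2 fold change of -0.73 (SE 0.17, limma adjusted p = 0.806). Of 38 other interferon-stimulated genes, 33 were lower at an unadjusted p-value under 0.05, against 2.63% of all genes, with a median of -0.59. Oas1g lay near the lower end of their range, -1.18 for Ifi44 to -0.21 for Trim25.

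**Figure D5:**
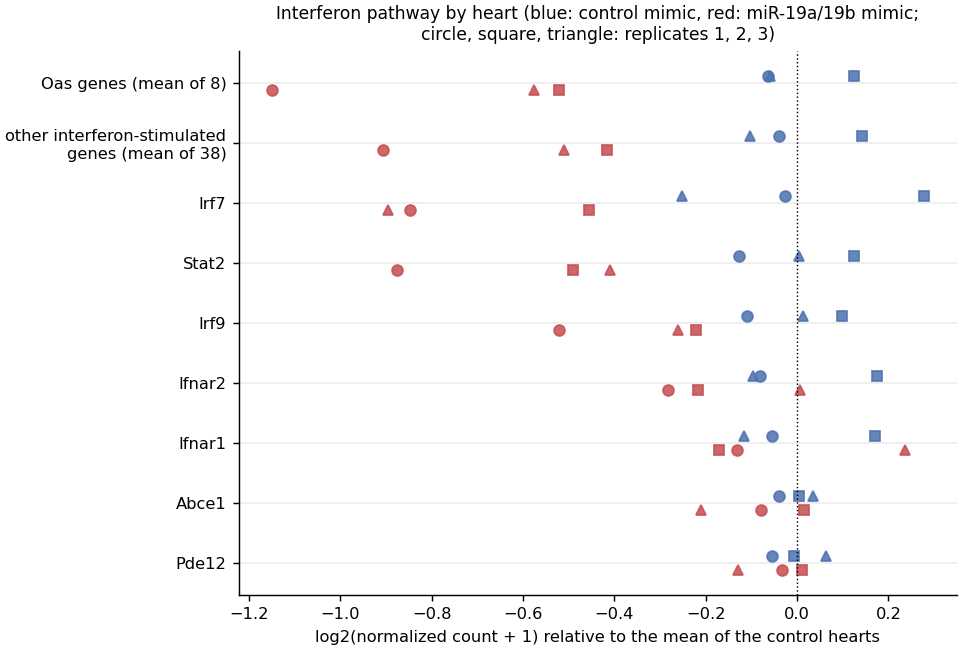
Log2(normalized count + 1) in each heart relative to the mean of the control hearts (x axis) for the mean of the 8 Oas genes, the mean of 38 other interferon-stimulated genes and 7 single genes of the pathway, with control hearts in blue and miR-19a/19b mimic hearts in red. The mimic hearts lie left of every control heart down to Irf9, and mix with them for Ifnar2, Ifnar1, Abce1 and Pde12.

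Markers of leukocytes were read beside these values. Of 5 monocyte markers, all 5 detected, 4 had a lower level with an unadjusted limma p-value under 0.05, as did 2.63% of all genes. The markers summed to between 4691 and 6186 normalized counts in control hearts and to between 2819 and 4116 in mimic hearts, without overlap. Of all single genes tested, 5.3% had every mimic heart below every control heart. Ly6c2, the surface marker of inflammatory monocytes, had 818, 748 and 465 against 148, 268 and 176, a log2 fold change of -1.77 (SE 0.26, limma adjusted p = 0.396). The summed markers of conventional dendritic cells (776 to 801 in control hearts, 677 to 718 in mimic hearts), T cells (251 to 353, and 193 to 214) and NK cells (183 to 331, and 96.8 to 162) were also lower in all mimic hearts. For NK cells this held for the sum and for 4 of the 6 markers, but not for their mean log2 level. Relative to the control mean, that level was -0.65 in control heart 3 and -0.64 in mimic heart 2. Of the 6 conventional dendritic cell markers, 4 were lower in all mimic hearts. Zbtb46, the largest part of their sum, and Clec9a overlapped between the groups (log2 fold changes 0.0005 and 0.19). Those of all leukocytes (4 markers, 15015 to 18259, and 11532 to 17873), macrophages (10 markers, 43292 to 51733, and 37122 to 51974), neutrophils (7 markers, 1899 to 2569.7, and 1047 to 3431), B cells, endothelial cells and fibroblasts overlapped between the groups. For leukocytes, macrophages, neutrophils and B cells, the sums of mimic hearts 1 and 2 lay below those of every control heart. The overlap of these sums came from mimic heart 3 alone, the heart low in cardiomyocyte markers. By mean log2 level relative to the control mean, mimic heart 2 overlapped as well for macrophages and neutrophils. It was at -0.02 for macrophages, against -0.06, -0.03 and 0.09 in control hearts 1, 2 and 3. For neutrophils it was at -0.13, against 0.36, -0.15 and -0.21. The summed list for plasmacytoid dendritic cells is not informative, because nearly all of it was Cox6a2, which is also expressed in heart muscle and was lowest in mimic heart 3 as the cardiomyocyte markers were, and the broadly expressed Tcf4. Siglech, a more specific marker of these cells, had 16.6, 26.3 and 21.5 normalized counts in control hearts and 8.61, 14.4 and 17.3 in mimic hearts, with an unadjusted limma p-value of 0.0896. No marker of any of these lists was at 0 in all hearts. The part of these cell types in the lower Oas values was not tested.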

How the data were processed

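Ventricular polyadenylated RNA was sequenced as paired reads by the authors, who aligned them with STAR (2.5.1b) and counted them per gene with HTSeq (0.6.0). The deposited values are a signal, read counts scaled by library size factors of 0.905 to 1.16. In each library 100% of values were whole multiples of 1 read (tolerance 0.01), so reads were recovered. The deposited fold changes and p-values of the authors, and a second table of their dysregulated genes, were not used. The submitters' processing notes name mm9 and DESeq2 (1.10.1), and the paper's methods name edgeR. All 8 Oas genes have the start and end of GENCODE M21 (GRCm38), as do 82.7% of 25884 matched genes, so coordinates are given on GRCm38.

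The test was limma 3.58.1 (R 4.3.3) on log2(normalized count + 1) with its intensity trend enabled. It covered 21126 genes, those averaging at least 1, with Benjamini and Hochberg adjustment and a threshold of 0.05. Fold changes on this scale understate those of genes with few reads. DESeq2 1.42.0, edgeR 4.0.16 and limma-voom were run on recovered reads, and the pipeline was tested on simulated reads. Named were all 8 Oas genes, set pathway genes, genes most alike in pattern, and examples from set lists. Trim25, Ifi44, Ly6c2, Siglech, Cox6a2, Ifngr1, Jak1, Jak2, Zbtb46, Clec9a and the cytotoxic genes were picked after their values were seen. Some genes under this rule are not reported here. Members and lists were chosen with earlier results of these data known. Transcripts were compared with BLAST 2.17.0. The main fit did not pair same-numbered hearts. Correlations of deviations were -0.11 to -0.01 for same-numbered hearts and -0.10 to 0.12 for the others. With 3 hearts per group, these values cannot show whether hearts were paired. Hearts are biological replicates per the methods.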

Additional observations from a re-analysis of the deposited data

How the results depend on the processing

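The 8 Oas fold changes kept their direction and their side of an unadjusted p-value of 0.05 in all 128 recomputed values, over 10 other fits with all 6 hearts and 6 fits that each left out 1 heart, so 7 of the 8 genes passed in each. Counts at an adjusted p-value under 0.05 did change. From 0 Oas genes, 0 lower and 0 higher genes in limma, they went to 2, 28 and 1 with DESeq2's Wald test and to 2, 28 and 2 with edgeR's exact test, both on recovered reads. With 1 heart left out they ranged from 0 to 6 Oas genes, from 0 to 154 lower genes and from 0 to 361 higher genes, where the maxima came from omitting mimic heart 3, and the cause was not tested. They stayed at 0 with the quasi-likelihood test under TMM, RLE or upper quartile factors, limma-voom, no filter, at least 10 normalized counts in every heart, a pseudocount of 0.1 and the replicate number as a block. The block gave 7 Oas genes at the unadjusted threshold and 434 lower genes against 555 without it, and the replicate numbers mark no known pairing. All 56 recomputed differences in shares stayed within 1 SD. At 23 to 73 reads per heart, depth limits what Oas1c can show.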

Other observations

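Some genes of cytotoxic lymphocytes, all with few reads, had lower values in the mimic hearts. Of 6 NK cell markers, 4 were lower with an unadjusted p-value under 0.05 in limma, as were 2.63% of all genes, and Ncr1 and Klrb1c did not pass. The list had a median log2 fold change of -1.02 where the median of all genes tested was 0.00, and 0 were called at the adjusted threshold. Gzma, which encodes granzyme A, had 91.7, 110.3 and 71.0 normalized counts in control hearts and 32.3, 56.7 and 30.3 in mimic hearts. Klrk1, the activating receptor NKG2D, had 67.4, 68.3 and 44.8 against 27.97, 35.1 and 35.4. In both genes no mimic heart reached the lowest control heart. Ncr1, a defining NK cell receptor, had 16.6, 30.3 and 5.61 against 5.38, 9.28 and 11.2, with the groups interleaved. Of 8 T cell markers, 3 were lower at the unadjusted threshold (Cd8a, Trac and Lck), and 5 did not pass, with a median of -0.61.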
